A study of Homo sapiens with 18 samples.

Results

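KMT2A, KMT2B, KMT2C and KMT2D encode the large methyltransferases of the MLL family, which place methyl groups on lysine 4 of histone H3 (H3K4). They were followed in LoVo, an established human colorectal cancer cell line, in cells carrying METTL3 K513R and in cells with METTL3 WT. METTL3 is the enzyme that deposits most N6-methyladenosine (m6A) in mRNA, and K513R puts an arginine in place of a lysine of it. The series is about methylation of the METTL3 protein and has 18 libraries in 6 groups of 3, in each genotype RNA-seq of total RNA depleted of rRNA, MeRIP immunoprecipitates (IP, fragments of poly(A) RNA pulled down with an antibody to m6A) and MeRIP inputs (the same fragments before pull-down). The 4 genes were found by symbol among 61267 genes of the count table. All m6A peaks of the peak table that overlap their exons on the same strand were taken, which gave 98 of 39708 peaks. This rule uses no measured value, but the 4 genes were picked for description with earlier results of these data known. The labels do not say how the substitution was introduced, whether a genotype is 1 clone, or whether libraries of a group came from separate cultures. The p-values therefore measure the spread between these libraries, which may be technical.

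Each KMT2 enzyme works in a complex whose core of WDR5, RBBP5, ASH2L and DPY30 is shared by the whole family and is needed for full catalytic activity. KMT2A and KMT2B bind unmethylated CpG-rich DNA and act mainly at promoters, where KMT2A maintains expression of HOX genes, whereas KMT2C and KMT2D act with the demethylase KDM6A and place monomethyl marks at enhancers. KMT2C and KMT2D are often mutated in cancers, colorectal ones included, and KMT2A is known for its rearrangements in leukaemia. Their mRNAs are among the longer ones of the cell and carry unusually long internal exons, a place where m6A is often found.

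The libraries of the genotypes differed in more than these genes. The gene counts of an RNA-seq library totalled 47451837 to 53795212 in K513R and 47105235 to 51886164 in WT. Genes with 7SL symbols (the RNA of the signal recognition particle) took 17.5% to 18.8% of the counts in K513R and 1.78% to 2.81% in WT, and mitochondrially encoded genes took 0.237% to 0.353% in K513R and 3.38% to 4.82% in WT. Counts inside peaks summed to 5905811 to 9198650 per K513R IP library and 11076729 to 12491969 per WT IP library, and to 2625446 to 4847236 per K513R input and 5025027 to 6200264 per WT input, so K513R values of peaks rest on fewer counts. Of 10 markers of colorectal epithelium, 9 were tested, 2 rose and 6 fell in K513R, where 41.5% of all genes tested rose and 36.9% fell. Their summed level was 2489 to 2681 CPM (counts scaled to library depth with TMM factors) in K513R and 10657 to 15411 CPM in WT. Most of this sum was KRT8, with means of 1915 CPM in K513R and 8821 CPM in WT. The 2 that rose were CDH1 (174 CPM in K513R and 84.4 CPM in WT) and LGR5 (3.68 and 1.53 CPM). CEACAM5, also on the list, was near 0 with 15 counts in all K513R libraries and 8 in all WT libraries. Of 10 markers of blood, vessel and stromal cells, 7 rose and 1 fell, with summed levels of 66.8 to 69.9 CPM in K513R and 43.6 to 55.8 CPM in WT. The part of these differences in the results below was not tested, and in such bulk samples fewer cells with an RNA and less of it per cell cannot be told apart.

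In RNA-seq, 3 of the 4 genes fell in K513R and KMT2B was near its WT level. Over all genes tested 78.3% passed the same test (edgeR quasi-likelihood, Benjamini-Hochberg adjusted p under 0.05 over 30377 genes), with 36.9% lower and 41.5% higher in K513R, so a call on its own says little about these genes. Among the 2711 tested genes with at least 10000 exonic bases, the class of the KMT2 genes, 56.5% were lower and 28% higher, with a median log2 fold change of -0.56 against 0.13 over all genes.

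KMT2D, the enhancer methyltransferase (chromosome 12, 49018975 to 49060794, minus strand, GRCh38), had 5912, 5850 and 6081 counts in K513R libraries and 18654, 16109 and 17843 in WT libraries, or 126, 122 and 119.7 CPM in K513R against 348, 348 and 353 CPM in WT. All K513R libraries lay far below all WT libraries, and the spread within a genotype was small (122 ± 2.96 CPM in K513R and 349.9 ± 2.83 CPM in WT, SD, n = 3 each). Its log2 fold change was -1.52 ± 0.10 (SE; edgeR adjusted p = 3.12e-10), a K513R level of 35.0% of WT. KMT2C, the other enhancer enzyme (chromosome 7, 152134922 to 152436644, minus strand), had 152, 175 and 147 CPM in K513R and 404, 393 and 316 CPM in WT. Its groups did not overlap either, but WT replicate 3 was lower than the other two. It fell by 1.23 ± 0.12 on the log2 scale (edgeR adjusted p = 4.58e-08), to 42.5% of WT.

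KMT2A, the promoter enzyme that binds CpG-rich DNA (chromosome 11, 118436456 to 118526832, plus strand), had 94.9, 98.8 and 100.2 CPM in K513R and 198, 192 and 178 CPM in WT, again without overlap. It fell by 0.95 ± 0.10 on the log2 scale (edgeR adjusted p = 1.54e-07), to 51.8% of WT. Of its exonic bases, 19.3% also belong to other genes of the count table, mostly the same-strand gene ENSG00000285827, which had 2922 to 3546 counts in K513R and 6656 to 9951 in WT. KMT2B, its closest relative (chromosome 19, 35717973 to 35738880, plus strand), had 58.0, 54.5 and 55.3 CPM in K513R and 55.7, 56.6 and 60.0 CPM in WT, and these libraries interleave. Its log2 fold change of -0.04 ± 0.10 stayed within error of 0 (edgeR adjusted p = 0.724). This value lies near 0 and its sign depends on the scaling, being 0.23 with upper-quartile factors (adjusted p = 0.0434) and 0.33 when only genes with an m6A peak are fitted (adjusted p = 0.00434). The same settings gave KMT2A -0.69 and -0.58, KMT2C -0.97 and -0.86, and KMT2D -1.25 and -1.15, all still past the threshold. They also moved the median of the genes fitted, to 0.39 and -0.0049.

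**Figure D1:**
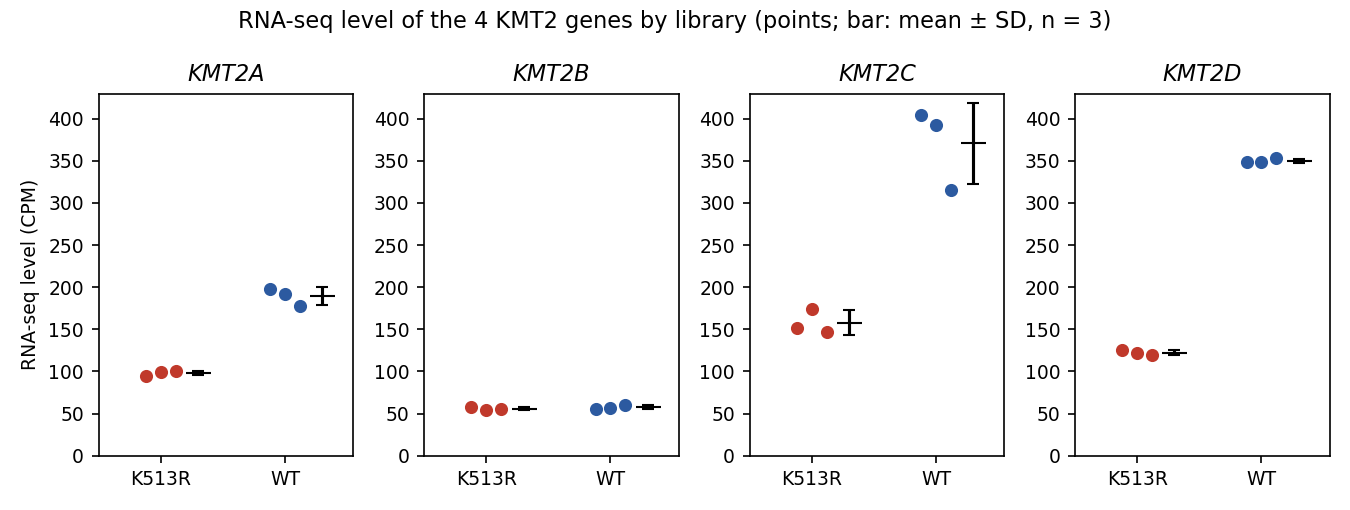
RNA-seq level of each KMT2 gene in CPM, with 1 point per library and the mean ± SD beside it, K513R in red and WT in blue. KMT2A, KMT2C and KMT2D separate the genotypes, with K513R means of 98.0, 158 and 122 CPM against WT means of 189, 371 and 349.9 CPM, while KMT2B lies at 55.9 CPM in K513R and 57.5 CPM in WT.

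The balance among the 4 genes, which does not depend on the scaling of a library, also differed between genotypes. KMT2B took 12.1% to 13.5% of the summed KMT2 level in K513R libraries and 5.54% to 6.63% in WT libraries, and KMT2D took 27.1% to 29.2% in K513R and 34.6% to 39.0% in WT. The log2 ratio of KMT2B to KMT2D was -1.12, -1.16 and -1.11 in K513R and -2.64, -2.62 and -2.56 in WT, a difference of 1.48, the widest of the 6 pairs. The groups of all 6 pairs were separate, but barely for KMT2A to KMT2C (-0.82 in K513R replicate 2 and -0.83 in WT replicate 3). These pairs share 4 genes and are not independent. How often other gene pairs separate was not tested, and 78.3% of all genes passed the RNA-seq test. The narrowest differences were those of KMT2A to KMT2C (0.28) and of KMT2C to KMT2D (0.29). Each pair gave p = 0.1 in an exact two-sided permutation test, also after adjustment over the 6 pairs, which is the smallest value that 3 libraries against 3 allow.

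Per kilobase of merged exon, the genes ranked differently in each genotype. In K513R the mean levels were 5.17 ± 0.17 CPM per kilobase for KMT2B, 4.81 ± 0.12 for KMT2D, 3.11 ± 0.087 for KMT2A and 2.96 ± 0.277 for KMT2C. In WT they were 13.8 ± 0.111 CPM per kilobase for KMT2D, 6.96 ± 0.906 for KMT2C, 6.01 ± 0.336 for KMT2A and 5.32 ± 0.211 for KMT2B (SD, n = 3 each). KMT2D stood first in every WT library and KMT2B first in every K513R library. KMT2A and KMT2C changed places among the K513R libraries, and KMT2C stood above KMT2A in each WT library, but its WT values (5.92 to 7.58) overlapped those of KMT2A (5.64 to 6.30), so these neighbours did not differ beyond their spread. The length is the union of all annotated exons, which holds rare isoforms, so such levels are only an approximate scale between genes.

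Because 3 of the genes fell and 1 did not, the 250 bases before the start of each gene as RefSeq annotates it (GRCh38.p14) are shown. These starts differ from those of the count table given above for KMT2A, KMT2B and KMT2C, and the start of KMT2D is the same. The KMT2C window lies wholly inside the gene as the count table has it, and the KMT2A and KMT2B windows run past its starts. The GC box GGGCGG or its reverse complement CCGCCC, the core that Sp1-type factors bind, is in capitals, and overlapping matches count separately.
KMT2A: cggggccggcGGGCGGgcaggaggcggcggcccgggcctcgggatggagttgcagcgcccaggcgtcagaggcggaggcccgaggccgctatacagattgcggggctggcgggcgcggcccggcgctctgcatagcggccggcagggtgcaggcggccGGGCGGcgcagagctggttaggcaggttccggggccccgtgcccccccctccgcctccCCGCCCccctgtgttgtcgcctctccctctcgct
KMT2B: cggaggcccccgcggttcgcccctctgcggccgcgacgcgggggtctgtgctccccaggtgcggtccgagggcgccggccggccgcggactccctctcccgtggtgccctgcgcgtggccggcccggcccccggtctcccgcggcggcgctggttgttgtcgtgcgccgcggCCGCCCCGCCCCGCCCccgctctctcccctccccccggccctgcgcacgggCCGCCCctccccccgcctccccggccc
KMT2C: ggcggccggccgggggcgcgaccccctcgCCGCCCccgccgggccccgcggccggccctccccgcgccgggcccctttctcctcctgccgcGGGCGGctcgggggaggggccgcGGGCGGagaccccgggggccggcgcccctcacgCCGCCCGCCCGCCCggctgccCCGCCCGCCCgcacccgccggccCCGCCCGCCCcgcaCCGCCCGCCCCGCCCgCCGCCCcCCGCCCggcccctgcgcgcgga
KMT2D: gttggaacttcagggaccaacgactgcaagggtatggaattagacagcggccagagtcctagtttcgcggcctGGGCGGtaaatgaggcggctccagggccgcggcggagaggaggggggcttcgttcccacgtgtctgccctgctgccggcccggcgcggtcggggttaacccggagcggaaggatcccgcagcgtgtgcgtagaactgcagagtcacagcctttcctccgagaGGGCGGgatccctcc
The windows are chr11:118436242-118436491 (plus strand) for KMT2A, chr19:35717753-35718002 (plus) for KMT2B, chr7:152436004-152436253 (minus) for KMT2C and chr12:49060795-49061044 (minus) for KMT2D. All 4 hold a GC box, 3 matches in KMT2A, 4 in KMT2B, 15 in KMT2C and 2 in KMT2D, where 42.6% of 35116 RefSeq promoters of this length hold at least 1. CpG pairs numbered 31 in KMT2A, 40 in KMT2B, 48 in KMT2C and 23 in KMT2D, against a median of 11 over all promoters, and the GC content was 78.4%, 84.4%, 92% and 65.6% against a median of 58%. None of the 4 windows held TTCCCGC or TTGGCGC (cores of E2F sites), CCGGAAG (ETS), TGACGTCA (CRE) or CCAAT on either strand. These motifs occur in 5.52%, 2.56%, 8.52%, 1.65% and 32% of all promoters, so their absence from such short windows draws no line between KMT2B and the rest.

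The genes whose centred log2 CPM profile over the 6 RNA-seq libraries lay closest to each member were named from 12156 candidates with a mean of at least 5 CPM. For KMT2D they were SPTBN1, KANK1 and GIT2, at root mean square distances of 0.0201, 0.0268 and 0.0332. For KMT2C ESRP1 and CHD7 are given (0.0373 and 0.0393), and for KMT2A they were CCNK, PPP2R1B and LATS1 (0.0285, 0.0287 and 0.0326). AP1B1, SPAG5 and CDKN2AIPNL lay closest to KMT2B (0.0242, 0.0243 and 0.0301). Among the members themselves the distance was smallest between KMT2A and KMT2C (0.174) and largest between KMT2B and KMT2D (0.737). No member was thus among the closest genes of another.

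The MeRIP inputs, made from poly(A) RNA and read only inside m6A peaks, did not show the falls seen in total RNA. Summed over its non-overlapping peaks, KMT2D had 720, 816 and 867 CPM in K513R inputs and 671, 629 and 637 CPM in WT inputs. These groups did not overlap, with K513R above WT, and the log2 fold change was 0.31 ± 0.09 (edgeR adjusted p = 0.0210). Of all genes tested in this way 27.1% passed, 13.5% higher and 13.6% lower. The call for KMT2D was lost in 5 of the 6 fits that leave out 1 library of a genotype (adjusted p up to 0.10 without WT replicate 2), and its value was 0.15 (adjusted p = 0.263) when only peaks at least 50% exonic were summed. KMT2C had 757, 880 and 857 CPM in K513R and 837, 764 and 806 CPM in WT, overlapping groups with a log2 fold change of 0.05 ± 0.09 (adjusted p = 0.730) that was -0.06 over the mainly exonic peaks. KMT2A had 480, 488 and 394 CPM in K513R and 534, 509 and 534 CPM in WT, separate groups, yet its value of -0.21 ± 0.10 did not pass (edgeR adjusted p = 0.123), except without K513R replicate 1 (-0.25, adjusted p = 0.0287).

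KMT2B had 296, 292 and 284 CPM in K513R inputs and 206, 251 and 218 CPM in WT inputs, all K513R libraries above all WT libraries. Its log2 fold change was 0.37 ± 0.10 (edgeR adjusted p = 0.00977), but leaving out WT replicate 1 or WT replicate 3 brought it above the threshold (adjusted p = 0.0852 and 0.0595). This sum is nearly a single region, because 1 peak of 690 bases in exon 3 held 97.8% of the counts in K513R inputs and 96.4% in WT inputs. In the other genes the leading peak held 20.3% to 38.6% in K513R and 18.8% to 33.6% in WT.

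Whether the genotype difference itself differed between the assays was tested in 1 edgeR model over the RNA-seq and input libraries of 10541 genes with a peak, in which 53% of genes passed. The difference of differences, RNA-seq minus input, was -1.44 ± 0.15 on the log2 scale for KMT2D (edgeR adjusted p = 1.31e-08) and -0.90 ± 0.17 for KMT2C (adjusted p = 7.71e-05). Both enhancer enzymes were thus lower in K513R in total RNA relative to the poly(A) input. KMT2A had -0.35 ± 0.15, which missed the threshold (adjusted p = 0.0590) and passed with library-size scaling (-0.39, adjusted p = 0.0310), without K513R replicate 3 (-0.46, adjusted p = 0.0310) and without WT replicate 3 (-0.41, adjusted p = 0.0398). For KMT2B the value was -0.02 ± 0.15 (adjusted p = 0.921). The model scales both assays over genes with a peak, so these values are smaller than the plain difference of the fold changes above. RNA-seq counts whole genes and inputs only peak regions, and the RNA was selected differently (rRNA depletion against poly(A) capture). What these differences of method add to the values was not tested.

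**Figure D2:**
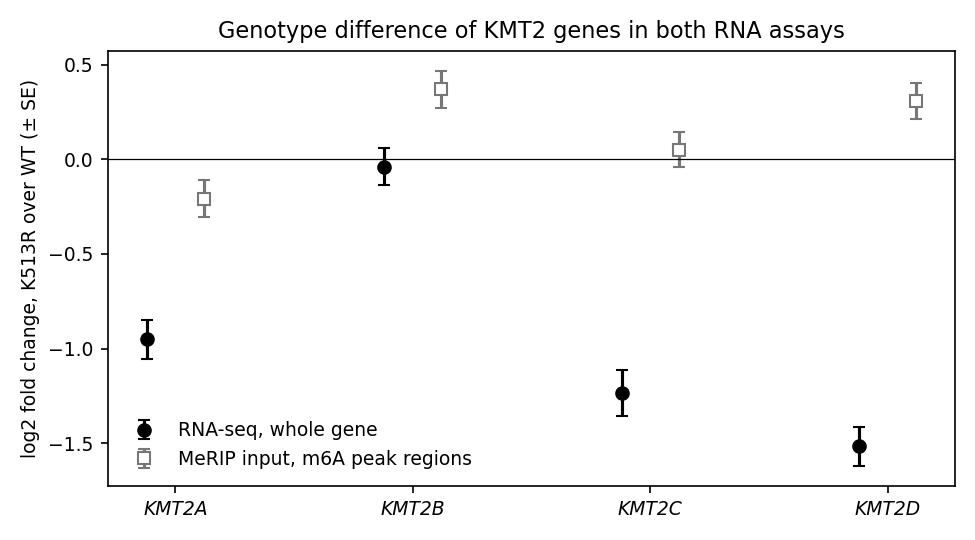
Log2 fold change of each KMT2 gene, K513R over WT, in RNA-seq (filled circles) and in MeRIP inputs summed over m6A peaks (open squares), with the SE of the model. KMT2D lies at -1.52 in RNA-seq and 0.31 in the inputs, and KMT2C at -1.23 and 0.05.

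The 98 peaks of the KMT2 genes were spread along these transcripts in clusters, 43 in KMT2A, 8 in KMT2B, 23 in KMT2C and 24 in KMT2D. The authors called peaks as a WT list and a K513R list, and 55 of these peaks came from the WT list and 43 from the K513R list. Overlapping peaks merged into 56 sites, of which 25 held peaks of both lists, 24 only WT peaks and 7 only K513R peaks. Most sites lay in long exons. Of 56 non-overlapping peaks, 48 had their main exon among the merged exons of at least 1000 bases, which number 36 of 164 and hold 78.7% of the exonic bases, and these peaks held 87.7% of the IP counts of all 56. The deposited fold enrichment of the peaks, the authors' own value, was 1.24 to 30.5. Exon numbers here count the merged exons of all annotated isoforms from the 5′ end, 33 in KMT2A, 34 in KMT2B, 48 in KMT2C and 49 in KMT2D. The exonic share of a peak is taken over its whole span from start to end. It does not show whether introns inside the span were counted.

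The change of m6A enrichment was tested as the interaction of genotype and IP on peak counts, a log2 difference in IP over input between K513R and WT. The main fit did not pair same-numbered IP and input libraries. Of the 98 peaks 83 had enough counts to be tested, and 13 were higher and 7 lower in K513R, where 13% of all 27252 tested peaks were higher and 9.61% lower (22.6% in either direction). With non-overlapping peaks only, 45 were tested, 7 were higher and 4 lower, against 12.8% and 11.1% of all such peaks. The split depends on the scaling, since library-size scaling gave 1 higher and 10 lower of the 83, and on the libraries, since no KMT2 peak was higher without WT replicate 1 or without WT replicate 3 (edgeR), 1 without WT replicate 2 and 2 without K513R replicate 2. Over all genes, those 4 fits called 1180, 1252, 1383 and 1893 peaks higher, against 3543 with every library. The list a peak was called in bears on its direction. A peak called in only 1 list was picked by the IP of that genotype, which the test then compares. Its p-value and its stability over settings are therefore not independent of how it was picked. Of the 37 tested KMT2 peaks of the K513R list 9 were higher and 2 lower (20.8% and 5.38% over that whole list, 26.1% in all), and of the 46 of the WT list 4 were higher and 5 lower (7.66% and 12.5%, 20.2% in all).

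**Figure D3:**
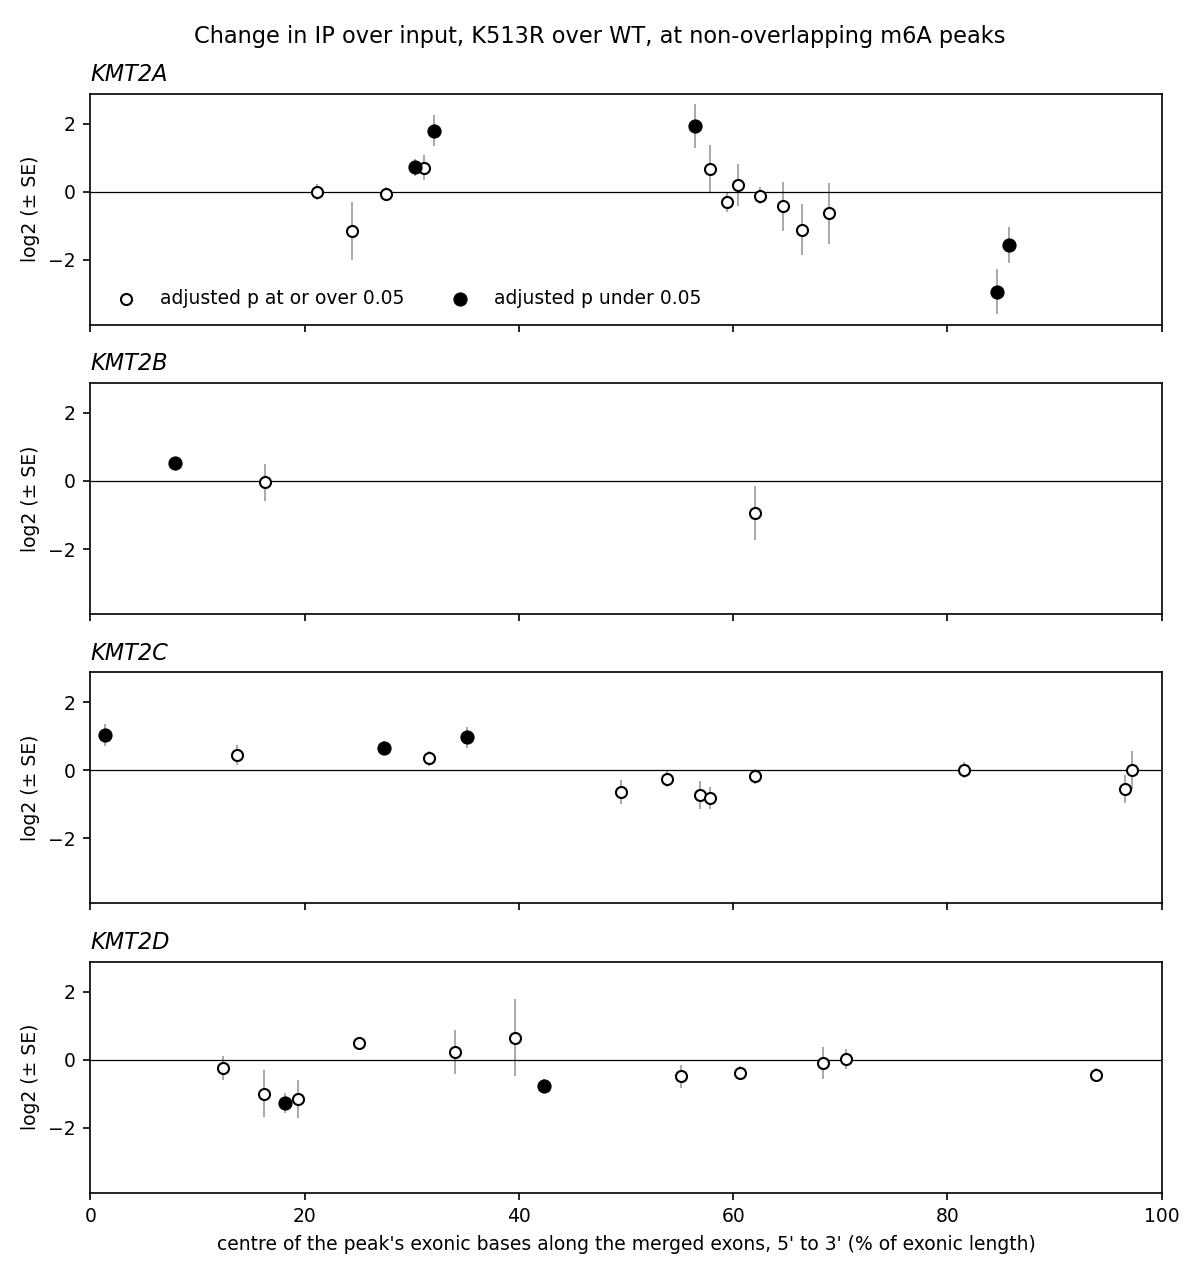
Change in IP over input at the 45 tested non-overlapping peaks (log2 K513R over WT, with SE) against the position of each peak along the merged exons from 5′ to 3′, 1 panel per gene. Filled points passed the test, 3 higher and 2 lower in KMT2A, 1 higher in KMT2B, 3 higher in KMT2C and 2 lower in KMT2D.

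Enrichment per library is given below as log2 IP over input, from CPM scaled to the counts in tested peaks with 0.5 added, so that 0 means the same share of peak counts in IP as in input and a negative value does not mean that m6A was absent. The median over all tested peaks was 0.259 in K513R and 0.249 in WT. Over the non-overlapping tested peaks of the 4 genes it was -0.20 in K513R and 0.05 in WT, with ranges of -2.25 to 1.34 and -1.45 to 1.60.

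Counts over the peaks of KMT2B, in IP and input alike, fell almost wholly in 1 place near the 5′ end. The peak of 690 bases in exon 3 (chromosome 19, 35719809 to 35720498), a merged exon of 2021 bases, held 98.8% of the IP counts over the gene's non-overlapping peaks in K513R and 97.1% in WT. It had 2998, 3094 and 2730 IP counts in K513R and 2882, 2760 and 2871 in WT, with 824, 547 and 482 input counts in K513R and 640, 681 and 752 in WT. The K513R libraries thus reached WT counts in spite of their lower depth. Its log2 IP over input was 1.09, 1.51 and 1.41 in K513R and 0.88, 0.80 and 0.78 in WT, every K513R pair above every WT pair. The interaction was 0.53 ± 0.19 (edgeR adjusted p = 0.0471), close to the threshold, and it was past it in 7 of 14 alternative settings, with values of 0.32 to 0.73 that were all positive. Leaving out a library moved it to between 0.44 and 0.64 and lost the call in 5 of the 6 fits, with an adjusted p up to 0.190 without K513R replicate 2. A nested peak of 510 bases from the K513R list gave 0.53 (adjusted p = 0.0448). The 2 other tested non-overlapping peaks of KMT2B, in exon 3 and in exon 28, had interactions of -0.04 and -0.93 that did not pass, on 34 and 51 IP counts in all K513R libraries. By mean log2 IP over input the exon 28 peak was at 0.87 in K513R and 1.60 in WT, on 12 and 13 input counts. The count shares therefore do not show that m6A was confined to exon 3.

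KMT2A had peaks in exon 5, around exons 9 to 11, in the long exon 24 and in the last exon, and they did not change alike (F test for differences between the 16 tested non-overlapping peaks of the gene in edgeR, adjusted p = 0.000118, a test that 28.1% of 4491 genes passed). Its most counted peak, in exon 5 (chromosome 11, 118473637 to 118474238), had a log2 IP over input of -0.47, -0.32 and -0.48 in K513R and -0.34, -0.19 and -0.48 in WT. These overlap, and the interaction was -0.07 ± 0.20 (edgeR adjusted p = 0.829). The broad peak just upstream (118468831 to 118472458) and the leading peak of exon 24 (118503863 to 118504493) also had small values of -0.01 and -0.11 that did not pass. All 3 carried a moderate number of counts, 644 to 1629 IP counts over the K513R libraries and 1441 to 3311 over the WT libraries. The exon 5 peak also lies wholly in exons of the same-strand gene ENSG00000285827, as do 811 bases of the broad peak. Every KMT2A peak from exon 5 to exon 11 overlaps exons of that gene, so their counts cannot be given to KMT2A alone.

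In the middle of the KMT2A transcript 3 non-overlapping peaks were higher in K513R. The clearest lay at exon 10 (118482376 to 118482587), with a log2 IP over input of 1.24, 1.62 and 1.17 in K513R and -0.68, -0.10 and -0.53 in WT, and an interaction of 1.79 ± 0.46 (edgeR adjusted p = 0.00923). It had 126, 49 and 42 IP counts in K513R and 83, 93 and 84 in WT, while its input counts were 30, 7 and 8 in K513R and 56, 43 and 56 in WT. The input itself had a log2 fold change of -1.23 there (adjusted p = 0.0118), so the rise in the ratio came with a lower input. Only 34.9% of this peak is exonic in KMT2A, and the whole of it lies in an exon of the overlapping gene ENSG00000285827. It was called in the K513R list only. Leaving out WT replicate 1 gave 1.66 (adjusted p = 0.0639) and leaving out WT replicate 3 gave 1.74 (adjusted p = 0.0556), both above the threshold. The input was also lower at exon 9 next to it (118481897 to 118482077, -0.91, adjusted p = 0.00638), and the 5 KMT2 peaks with a lower input were all in this stretch of exons 9 and 10. The other 2 higher peaks were a broad one of 3720 bases over exons 7 to 9, 7.31% exonic, with 0.72 ± 0.24 (adjusted p = 0.0393), and one at exons 22 and 23 (118501120 to 118501825) with 1.92 ± 0.65 (adjusted p = 0.0376) on 9 input counts over the K513R libraries and 24 over the WT libraries. Both calls were lost without any one of the WT libraries and without K513R replicate 2, and the second also without K513R replicate 1, with adjusted p up to 0.154 and 0.138. With the replicate number as a block the second was also lost (1.93, adjusted p = 0.0595).

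At the 3′ end of KMT2A 2 peaks of the last exon were lower in K513R. The first (118521916 to 118522066) had 4, 3 and 2 IP counts in K513R and 19, 18 and 26 in WT, beside 14, 10 and 18 input counts in K513R and 15, 7 and 9 in WT. Every K513R library was below every WT library in the IP, and the interaction was -2.94 ± 0.66 (edgeR adjusted p = 0.00450), past the threshold in all 13 alternative settings. The second (118522155 to 118522516) had 18, 10 and 12 IP counts in K513R and 43, 43 and 43 in WT, with -1.57 ± 0.53 (edgeR adjusted p = 0.0380), and it passed in 7 of 14 alternatives and without K513R replicate 1, but in none of the fits without another library (adjusted p up to 0.143). Both rest on small counts and were called in the WT list only, so the WT IP had picked them before the test. Against the other peaks of the gene, the exon 10 peak differed by 1.20 (adjusted p = 0.00544) and the first last-exon peak by -2.08 on the log2 scale (adjusted p = 0.00578).

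KMT2C had its higher peaks in the 5′ part of the transcript, and none of its peaks was lower. In exon 27 (chromosome 7, 152202950 to 152203693) the log2 IP over input was -0.43, -0.86 and -0.34 in K513R and -1.59, -1.48 and -1.27 in WT, without overlap, on 95, 79 and 77 IP counts in K513R and 70, 60 and 56 in WT. The interaction was 0.97 ± 0.30 (edgeR adjusted p = 0.0266), and the call was lost without any one WT library (adjusted p up to 0.128). In exon 25 (152220503 to 152220714), a better covered peak, the IP counts were 446, 418 and 389 in K513R and 428, 324 and 374 in WT, and the interaction was 0.65 ± 0.22 (adjusted p = 0.0337). Both enrichments stayed below the median of all peaks in both genotypes. The third higher peak spans 13566 bases from start to end, only 0.899% of them exonic, in exons 5 and 6 (1.03 ± 0.32, adjusted p = 0.0233). Whether reads of the intron inside this span were counted cannot be told from its start and end. These last 2 calls were also lost without any one WT library and without K513R replicate 2, with adjusted p up to 0.177 in exon 25 and 0.128 in the wide peak. The higher peaks of KMT2C were all called in the K513R list only.

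Other large peaks of KMT2C did not pass. The peak in exon 17 (152247956 to 152248436) had a log2 IP over input of 1.18, 0.64 and 1.93 in K513R and 0.94, 0.65 and 0.70 in WT, with an interaction of 0.45 ± 0.30 (edgeR adjusted p = 0.281). The peak over exons 34 and 35 (152176233 to 152179856) had 0.24, 0.60 and 0.55 in K513R and 0.83, 0.72 and 0.68 in WT, with -0.26 ± 0.22 (adjusted p = 0.426), although its groups did not overlap. The widest exonic peak of the gene, 4044 bases of exon 41, had -0.17 ± 0.22 (adjusted p = 0.614). All 13 tested non-overlapping peaks of KMT2C lay between -0.81 and 1.03, and they differed among themselves (F test in edgeR, adjusted p = 0.000920, and 0.0601 without WT replicate 2). Along the exons, the 5 of these peaks up to exon 27 had positive values and 7 of the 8 from exon 33 on had negative ones, a split described after the values were seen. It follows the list in which a peak was called, as 4 of those 5 peaks came from the K513R list and all 8 others from the WT list, whose medians over all genes were 0.356 and -0.274, so position and list cannot be told apart here.

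In KMT2D 5 of 21 tested peaks were lower in K513R and none higher, where 9.61% of all peaks were lower. The 5 lie in 3 places, since 3 of them overlap in exon 34, and of the 13 tested non-overlapping peaks 2 were lower. The exon 34 peak (chromosome 12, 49037548 to 49038508), its most counted, had 593, 583 and 566 IP counts in K513R and 1515, 1206 and 1313 in WT. Its log2 IP over input was -0.08, -0.28 and -0.23 in K513R and 0.47, 0.64 and 0.61 in WT, clearly separate groups. The interaction was -0.77 ± 0.22 (edgeR adjusted p = 0.0151), and the input of the same peak was higher in K513R, by 0.46 on the log2 scale (adjusted p = 0.0330). The call was lost without K513R replicate 2 and without any one WT library (-0.84 to -0.73, adjusted p up to 0.0832). A nested K513R peak at its 3′ end (49037548 to 49037759) had -1.06 ± 0.25 (adjusted p = 0.00653) and passed in all 12 alternatives. The other nested K513R peak (49038087 to 49038388) had -0.67 ± 0.24 (adjusted p = 0.0481) and passed in 6 of 12 alternatives, with an adjusted p of 0.0510 with RLE factors and up to 0.230 without 1 library (K513R replicate 2).

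In exon 12 of KMT2D (49050037 to 49050338) the IP counts were 43, 44 and 39 in K513R and 139, 131 and 150 in WT, beside 116, 49 and 53 input counts in K513R and 66, 71 and 103 in WT. The log2 IP over input was -2.10, -1.09 and -1.46 in K513R and -0.20, -0.32 and -0.58 in WT, without overlap. Its interaction was -1.26 ± 0.30 (edgeR adjusted p = 0.00595), past the threshold in all 13 alternatives, but it was called in the WT list only. The last exon held a peak of 691 bases (49021283 to 49021973) with 104, 69 and 48 IP counts in K513R and 285, 254 and 254 in WT, and an interaction of -1.04 ± 0.30 (adjusted p = 0.0161), lost without K513R replicate 2, WT replicate 2 or WT replicate 3 (adjusted p up to 0.101). That peak was also called in the WT list only and lies inside a broad one of 9004 bases, 34.5% exonic in KMT2D. The broad peak reaches into exons of PRKAG1, had -0.45 ± 0.21 and did not pass (adjusted p = 0.132). Large peaks of exons 11 and 40 (49051092 to 49052412 and 49032416 to 49033766) had -0.25 and -0.49, with overlapping groups, and did not pass (adjusted p = 0.651 and 0.303).

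Among the 13 tested non-overlapping peaks of KMT2D 9 had negative values, with a median of -0.39 where the median over all non-overlapping peaks was -0.16. Whether they differed among themselves depended on the pairing of input and IP, with an adjusted p of 0.0595 in the F test without the replicate number as a block and 0.000929 with it. A peak over exons 22 and 23 (49043996 to 49044279), 32.4% exonic, stood apart from the rest of the gene, 0.60 above the other peaks on the log2 scale (adjusted p = 0.0256), with an interaction of 0.48 ± 0.19 (edgeR adjusted p = 0.0639). With the replicate number of IP and input as a block this interaction passed (0.49, adjusted p = 0.0214), and it passed with DESeq2 (adjusted p = 0.0410), so that KMT2D then has a higher peak. It had 865, 610 and 570 IP counts in K513R and 717, 542 and 664 in WT.

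**Figure D4:**
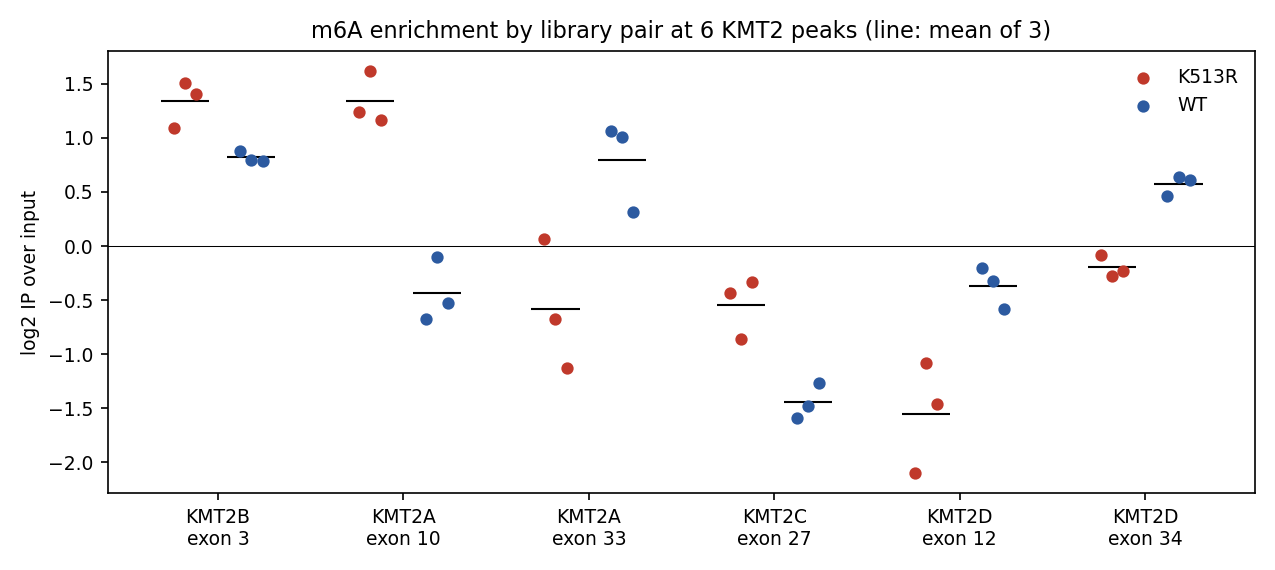
Log2 IP over input of each pair of IP and input libraries at 6 KMT2 peaks past the test, K513R in red to the left of WT in blue, with the mean of 3 as a line. The groups do not overlap at any of them, with K513R higher at KMT2B exon 3, KMT2A exon 10 and KMT2C exon 27 and lower at the second peak of KMT2A exon 33 and KMT2D exons 12 and 34. Those of KMT2A, KMT2C exon 27 and KMT2D exon 12 were called only in the list of the genotype in which they are higher.

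Input counts per peak were tested separately, to see whether a transcript moved alike along its length. Of 71 KMT2 peaks tested, 7 were higher and 5 lower in K513R, where 10.4% of all 21796 peaks were higher and 10.4% lower. The higher ones were 2 overlapping peaks in exon 3 of KMT2B, but not the third peak of that exon (-0.53, edgeR adjusted p = 0.413), and 5 peaks of KMT2D, in exons 22, 34, 47 and 49, with log2 fold changes of 0.38 to 0.56. None of the 19 tested peaks of KMT2C passed in either direction (edgeR).

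The authors' deposited table holds its own comparison of the genotypes for each peak. Of the 98 KMT2 peaks 21 had a deposited FDR under 0.05 in the authors' deposited table, where 20.8% of all peaks did, 5 with a positive and 16 with a negative difference. These 21 hold all 7 peaks that were lower and 4 of the 13 peaks that were higher in the interaction test above. The exon 3 peak of KMT2B is not among them.

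The partners of the KMT2 enzymes were mostly lower in K513R RNA-seq. All 4 members of the shared core fell. WDR5, which holds the complex together, had 6.84 ± 0.657 CPM in K513R and 19.7 ± 2.90 CPM in WT (SD, n = 3 each). The log2 fold changes were -1.52 ± 0.13 for WDR5, -1.26 ± 0.12 for DPY30, -0.62 ± 0.10 for ASH2L and -0.28 ± 0.10 for RBBP5 (edgeR adjusted p of 0.0185 for RBBP5 and lower for the rest). With upper-quartile factors, without K513R replicate 1 and without K513R replicate 2, 3 of the 4 fell, and 2 of the 4 when only genes with a peak were fitted. The median of the core was -0.94, beside 0.13 over all genes tested. Of the partners of KMT2A and KMT2B, 3 of 5 fell. PSIP1, the chromatin reader LEDGF that tethers KMT2A with menin, had 35.2 ± 2.96 CPM in K513R and 294.6 ± 98.5 CPM in WT (log2 fold change -3.06 ± 0.23). HCFC1 and HCFC2, the host cell factors, had -1.83 ± 0.11 and -1.29 ± 0.13. MEN1, which encodes menin, and TASP1, the protease that cleaves KMT2A, had values of 0.06 and 0.18 that did not pass, and 2 of the 5 genes were called higher with upper-quartile factors. All 4 partners of KMT2C and KMT2D fell under every scaling tried, with -1.29 ± 0.13 for the demethylase KDM6A, -0.65 ± 0.11 for PAXIP1, -1.36 ± 0.11 for PAGR1 and -1.65 ± 0.12 for NCOA6.

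Fewer partners fell in the poly(A) inputs than in RNA-seq, but so did fewer of all genes tested (13.6% against 36.9%). Of the 3 core members with a tested peak sum only DPY30 fell (-0.46, edgeR adjusted p = 0.0370), and WDR5 was at -0.06 (adjusted p = 0.808). PSIP1 also fell (-0.99, adjusted p = 3.38e-05), HCFC1 and HCFC2 had -0.10 and -0.15 and did not pass, and none of the 4 partners of KMT2C and KMT2D passed, with values of -0.38 to 0.03.

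**Figure D5:**
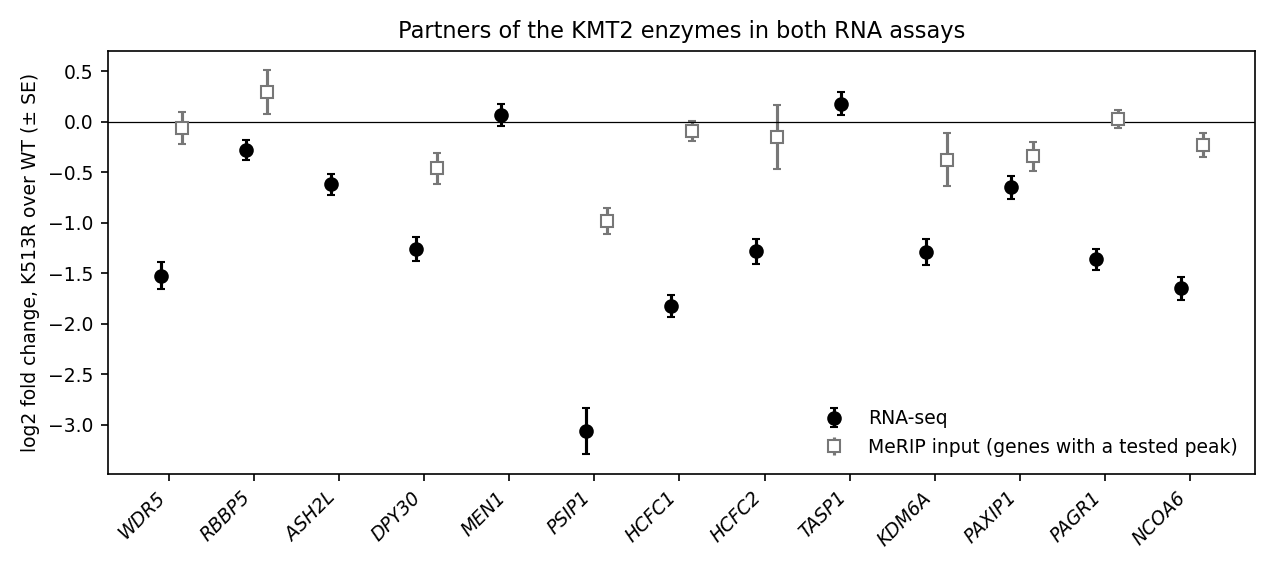
Log2 fold change, K513R over WT, with SE, of the shared core, the KMT2A and KMT2B partners and the KMT2C and KMT2D partners in RNA-seq (filled circles) and, for genes with a tested peak sum, in MeRIP inputs (open squares). PSIP1 is the lowest in both assays, at -3.06 in RNA-seq and -0.99 in the inputs.

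Other genes of H3K4 methylation moved in the same assay. Of 5 genes of the SETD1 complexes 4 fell, among them WDR82 (-2.09 ± 0.12), SETD1A, the methyltransferase named in the series title (-1.46 ± 0.11), and BOD1L1 (-0.84 ± 0.25), and CXXC1, their CpG-binding subunit, rose (0.80 ± 0.12) (edgeR adjusted p = 0.0116 for BOD1L1 and lower for the other 3). With upper-quartile factors 2 of the 5 fell. Of 7 tested genes on a loose list of other H3K4 methyltransferases, which also holds KMT2E, ASH1L and SETMAR, 3 fell. Among them were SMYD3 (-1.22 ± 0.10) and SETD7 (-0.62 ± 0.10). SMYD1, a muscle enzyme near 0 in WT (0.853 ± 0.22 CPM in K513R and 0.0124 ± 0.0216 CPM in WT), rose. The number that rose was 3 with upper-quartile factors, 2 when only genes with a peak were fitted and 0 among genes of at least 1 CPM on average, and the number that fell was 2 when only genes with a peak were fitted. All 5 H3K4 demethylases fell, with the largest changes in KDM5A (-1.47 ± 0.11), KDM1A (-1.13 ± 0.11) and KDM5B (-1.08 ± 0.11). In the inputs, 1 of the 5 SETD1 genes fell (WDR82), 2 of 5 genes listed as other methyltransferases fell and 1 rose, and none of 3 demethylases passed.

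The HOXA cluster and its cofactors, the best known targets of KMT2A, went in both directions. Of 14 genes 6 rose and 7 fell (median log2 fold change -0.20), or 7 and 4 when only genes with a peak were fitted. HOXA7 rose to 74.7 ± 3.48 CPM in K513R, against 7.84 ± 0.245 CPM in WT, a log2 fold change of 3.25 ± 0.11, HOXA11 had 2.21 ± 0.13 and HOXA5 had -1.70 ± 0.15. In the inputs 1 of 9 passed, HOXA13, at 0.47 (edgeR adjusted p = 0.00330), which had fallen in RNA-seq. The enhancer acetylation list, whose factors act at the sites that KMT2C and KMT2D mark, fell in 8 of 8 genes, among them NCOA2 (-2.75 ± 0.12) and CREBBP (-2.55 ± 0.13), and 7 fell with upper-quartile factors. In the inputs 1 of 7, NCOA2, fell. Of 8 genes of H3K27 methylation 7 fell in RNA-seq, JARID2 (-3.38 ± 0.12), RBBP4 (-2.07 ± 0.12) and SUZ12 (-1.74 ± 0.11) with the largest changes, and the demethylase KDM6B rose (1.08 ± 0.11). In the inputs 3 of the 8 fell, EZH2, EED and RBBP7. Against the background of 36.9% lower in RNA-seq and 13.6% lower in the inputs, these counts are a description, and none of the lists was tested as a set.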

How the data were processed

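Gene lists, like the members, were chosen with earlier results of these data known. RNA-seq values are raw counts per gene and MeRIP values raw counts per peak as deposited by the authors, whose peak table also holds fold enrichment, a score equal to it, a log2 difference and a p-value or FDR per peak, the authors' own. Per the submitters' processing notes, reads were trimmed with Trimmomatic 0.36 and counted with featureCounts of Subread 1.5.1 on GRCh38, and edgeR 3.12.1 was among the tools. No source used here names the aligner or the peak caller. The MeRIP kit used molecular identifiers, per the labels' protocols, but whether they entered the counts is not stated. In the RNA-seq table strand appears not to have been used, since TALAM1, antisense to MALAT1, had 91.3% to 96.6% of the counts of MALAT1.

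edgeR 4.0.16 (R 4.3.3) fitted every table whole, with TMM factors, filterByExpr and a robust quasi-likelihood test of K513R against WT, 3 libraries each, with SE = |log2 fold change| / √F and Benjamini-Hochberg adjustment. IP and input were fitted together with an interaction term and scaled separately. This main fit did not pair same-numbered IP and input libraries, and the replicate block, used as an alternative, does. Non-overlapping peaks were picked in order of counts, inputs were summed over them per gene, and differences between peaks of a gene were tested with diffSpliceDGE. Of each list, the 3 genes past the test with the largest change are named, all partners, SETD1A, and genes that a small count singles out; 2 genes that these rules name are not reported here. Peaks described singly were chosen after their values were seen, as those past the test and large ones of each gene. Same-numbered IP and input libraries come from the same RNA per the labels' protocols, so their numbers pair them. Their deviations correlated at 0.115 to 0.418, and those of differently numbered ones at -0.341 to 0.155. These ranges overlap, so the correlations alone do not settle the pairing. Alternatives were other scalings and filters, DESeq2 1.42.0, the replicate block, each library left out, exonic or non-overlapping peaks only, and, added after the data were seen, input sums over mainly exonic peaks and a refit of RNA-seq on genes with a peak. The main edgeR fits and DESeq2 were first tested on simulated counts. The replicate block, the other scalings and the permutation test were not, nor was a shift of most genes as seen here. Counting limits the precision of peaks with few counts, and peaks overlap, so their totals are not library depth.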

Additional observations from a re-analysis of the deposited data

Results flagged for a closer look

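The genotype difference of 2 KMT2 genes differed between the RNA assays. For KMT2D the difference between K513R and WT was lower in RNA-seq than in MeRIP input by 1.44 on the log2 scale (RNA-seq minus input -1.44, edgeR adjusted p = 1.31e-08). For KMT2C it was lower by 0.90 (-0.90, edgeR adjusted p = 7.71e-05). The K513R libraries lay below all WT libraries in RNA-seq for both genes, whereas in the inputs they lay above all WT libraries for KMT2D and overlapped them for KMT2C. Both values kept their sign and their call in every alternative tried, with -1.52 to -1.36 for KMT2D and -1.01 to -0.81 for KMT2C when 1 library was left out. The rise of KMT2D within the inputs was less stable. As given above, it lost its call over mainly exonic peaks and in most fits without 1 library. The assays differ in RNA selection and in the regions counted, and the part of these in the values was not tested. Groups of 3 are too small to test single libraries as outliers.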

How the results depend on the processing

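In RNA-seq, KMT2A, KMT2C and KMT2D kept their direction and call in every alternative, and without 1 library they lay between -1.04 and -0.93, -1.38 and -1.17, and -1.58 and -1.49. KMT2B (-0.11 to -0.02 without 1 library) turned positive with upper-quartile factors (0.23), with genes of at least 1 CPM on average (0.087), without 7SL, 7SK and mitochondrial genes (0.14) and with genes that have a peak only (0.33), a fit that tested fewer genes and called 4340 higher and 4382 lower. KMT2 peaks higher in K513R numbered 1 with library size only, 8 without the low-count filter, 2 among peaks scored above the median deposited score, 8 with non-overlapping peaks only and 5 with mainly exonic peaks, and lower ones 0 among the well-scored peaks and 4 with non-overlapping peaks only. Of the non-overlapping peaks, 1, 1 and 3 were higher with library size only, among the well-scored peaks and with exonic peaks, and 7 and 0 lower with library size only and among the well-scored peaks. Over all genes 1813 peaks were higher with library size only and 887 among the well-scored peaks, and 552 lower among the well-scored peaks and 1647 with non-overlapping peaks only. Without 1 library, 0 to 13 KMT2 peaks were higher and 3 to 10 lower, 0 to 7 and 2 to 7 non-overlapping ones, and 1180 to 4172 and 868 to 3337 over all genes.

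Values near 0 changed sign. The KMT2A peak over exons 4 and 5 (-0.01) was 0.0030 with RLE factors, 0.21 among the well-scored peaks, 0.067 with non-overlapping peaks only and -0.12 to 0.077 without 1 library (0.077 without K513R replicate 2, 0.030 without K513R replicate 3 and 0.0077 without WT replicate 3). The KMT2A exon 5 peak was 0.14 among the well-scored peaks and 0.0075 with non-overlapping peaks only, and the exon 24 peak and the KMT2C exon 41 peak were 0.10 and 0.060 among the well-scored peaks. Input peaks of KMT2 genes higher in K513R numbered 11 with library size only, 4 with DESeq2 and 4 with the replicate block, and 0 to 13, with 4 to 15 lower, without 1 library. Input genes numbered 669 to 1264 higher and 685 to 1394 lower without 1 library. The input of KMT2D was 0.31 with the replicate block (adjusted p = 0.0607), 0.15 over exonic peaks and 0.25 to 0.38 without 1 library. That of KMT2C was -0.055 over exonic peaks and 0.01 to 0.11 without 1 library, of KMT2A -0.26 to -0.12 and of KMT2B 0.31 to 0.45. The assay difference was -0.39 for KMT2A with library size only, 0.012 for KMT2B over exonic peaks, and without 1 library -0.46 to -0.27 for KMT2A and -0.11 to 0.030 for KMT2B (0.016 without WT replicate 1 and 0.030 without WT replicate 3). The adjusted p between peaks of KMT2D was 0.000929 with the replicate block and 0.0145 to 0.299 without 1 library, of KMT2A 0.00014 to 0.0179, of KMT2B 0.0899 to 0.549 and of KMT2C 1.46e-06 to 0.0601. The cause of these shifts was not tested.

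The replicate block pairs IP and input, where it gave 15 KMT2 peaks higher and 7 lower. Replicate numbers of K513R and WT share only a number (correlations of -0.152, 0.385 and 0.097 in RNA-seq and -0.203, -0.078 and 0.043 in the inputs), and there the block is a check only. K513R peaks rest on fewer counts than WT peaks, so a change that missed the test at a peak with few counts was not detectable at this depth, which does not show it absent.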

Other observations

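The peaks that had too few counts for the test lay mostly at the ends of the KMT2 transcripts. Of the 15 such peaks, 6 lay in the last exon of KMT2A (chromosome 11, 118524853 to 118526772), with 5 to 21 IP counts each over the K513R libraries and 5 to 37 over the WT libraries. The single peak in a first exon, in KMT2D, had 13 IP counts in K513R and 10 in WT. The peak of the last exon of KMT2B had 8 IP counts in K513R and 2 in WT, and an isolated peak in exon 3 of KMT2A had 2 IP counts in K513R and 32 in WT.

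Genes that overlap a KMT2 gene were counted beside it. Strand appears not to have been used in these counts. Reads over shared exonic bases can thus count for both genes, which can by itself make a gene move with its KMT2 partner. ENSG00000288710, which shares exons with KMT2D, had 925 to 1132 RNA-seq counts in K513R and 3034 to 3631 in WT, and TTC36-AS1, opposite KMT2A, had 176 to 186 in K513R and 427 to 529 in WT. Both ranges lie apart in the direction of their KMT2 partner. So does that of FABP5P3, which overlaps KMT2C, with 314 to 360 in K513R and 610 to 1034 in WT. DDN-AS1, which overlaps KMT2D, went the other way, with 307 to 381 in K513R and 173 to 243 in WT. IGFLR1, which overlaps KMT2B, had 253 to 300 in K513R and 60 to 84 in WT, while KMT2B did not pass. Pseudogene copies of KMT2C and BAGE2, which carries a partial copy, had 0 to 6 counts in any library.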
